A study of Drosophila melanogaster and Drosophila melanogaster x Drosophila simulans and Drosophila simulans with 6 samples.

Results

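The 8 genes described here encode the core proteins of the small interfering RNA (siRNA) and microRNA (miRNA) pathways, namely drosha (Dmel_CG8730), pasha (Dmel_CG1800), Dcr-1 (Dmel_CG4792), loqs (Dmel_CG6866), AGO1 (Dmel_CG6671), Dcr-2 (Dmel_CG6493), r2d2 (Dmel_CG7138) and AGO2 (Dmel_CG7439). They were chosen by name for their roles, with no threshold on a measured value but with earlier results of these data known, and are 8 of the 13973 D. melanogaster genes in a table of 28229 genes of both species. All 8 passed the filter on low counts and were among the 8202 D. melanogaster genes tested. The comparison asked how the D. melanogaster alleles of these genes are expressed in the ovaries of interspecific hybrids and in those of their mothers' line. The D. simulans alleles of the 8 genes were not analysed here, because the D. simulans identifiers are not paired with gene names in the sources used.

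The ovarian poly(A) transcriptome was measured in 6 libraries, 2 for each genotype, which the methods describe as biological replicates. The D. melanogaster Hmr2 flies came from a stock whose X chromosome carries the inversions In(1)w[m4] and In(1)AB and the alleles y[2] and Hmr[2]. The Hmr mutation partly rescues hybrid viability, and an inversion moves a large satellite block out of pericentric heterochromatin. The F1 hybrids were daughters of Hmr2 females and males of the D. simulans line w501, so each hybrid carried 1 maternal D. melanogaster genome with the mutated X and 1 D. simulans genome. Hybrid females were reared at a lowered temperature, dissected a few days after eclosion, and only ovaries in which several ovarioles held egg chambers were taken. The third genotype was D. simulans w501 itself, which carries none of the D. melanogaster alleles and shows how often reads were placed in the wrong species.

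In Drosophila, miRNAs and siRNAs are made by separate enzymes with related structures. In the nucleus, the RNase III enzyme Drosha and its double-stranded RNA binding partner Pasha cut hairpins out of primary miRNA transcripts. In the cytoplasm, Dicer-1 with its partner Loquacious (loqs) cuts the hairpin to a miRNA, which is loaded mostly into Argonaute-1, whereas Dicer-2 cuts long double-stranded RNA to siRNAs and, with R2D2, loads them into the RNA-slicing Argonaute-2. The branches meet at loqs, 1 isoform of which works with Dicer-2. In the ovary the miRNA branch is known for its part in the division and maintenance of germline stem cells, and the siRNA branch for silencing viruses and transposons, mostly in somatic cells.

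The libraries held between 12981002 and 22363396 estimated counts. D. melanogaster genes took 97.0% and 97.3% of the counts in the D. melanogaster libraries, 45.1% and 47.7% in the hybrids, and 2.61% and 2.65% in D. simulans. The tissue was checked against marker genes, tested in edgeR like the genes below. All 9 germline markers were expressed in the D. melanogaster and hybrid libraries, with vas, an RNA helicase of germ cells, at a log2 fold change of 0.01 between hybrids and D. melanogaster, but 3 of 9 germline markers fell at least 2-fold (orb, bam and grk). Of 7 follicle cell markers tested, 5 fell at least 2-fold in hybrids. Fas3 (log2 0.31) and cad (log2 0.26) were higher in both hybrid libraries and did not pass the test. The summed TPM of the 8 listed went from 3983 and 3295 in D. melanogaster to 877 and 646 in hybrids. Most of this sum was Vm26Aa, at 2912 and 2436 against 626 and 423, and Yp1, at 938 and 709 against 148 and 129. All 7 muscle markers rose, from summed TPM of 205 and 130 to 395 and 336, and all 3 haemocyte markers rose from 0.516 and 0.293 to 2.42 and 2.37. In the D. simulans libraries wupA was at 31.8% and Tm2 at 10.4% of the D. melanogaster level, so their hybrid values contain wrongly placed reads. Counts were low for eater, 6 and 1 in D. melanogaster and 10 and 15 in hybrids, and for NimC1, 10 and 4 against 30 and 20. The sums are in TPM over both species, and the median tested gene had a log2 fold change of -0.41 on log2(TPM + 1). The edgeR values are instead relative to the other D. melanogaster genes. Of 4 fat body markers, Lsp1beta, Lsp2 and Fbp1 had at most 3 counts in each of these 4 libraries, and apolpp was at a log2 fold change of -1.15 that did not pass the test (adjusted p = 0.134). Of 3 neuron markers, Syt1 fell (log2 -1.06, adjusted p = 0.0202), elav did not pass the test and nSyb was too low to be tested. In bulk ovaries, fewer cells of a type and less RNA per cell cannot be told apart, and the part of these shifts in the results below was not tested.

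Levels are given first as TPM, which is scaled by transcript length and library and so allows genes to be set side by side. In D. melanogaster ovaries the order of the mean TPM ran from AGO2 (51.4 ± 3.90, SD, n = 2) through r2d2 (42.7 ± 2.16), AGO1 (34.8 ± 10.6), drosha (23.8 ± 5.85), Dcr-2 (20.3 ± 4.11), pasha (19.8 ± 2.999) and loqs (16.4 ± 2.18) to Dcr-1 (12.2 ± 2.85). Most neighbours in this order overlapped in their libraries, the exceptions being AGO2 above r2d2 and loqs above Dcr-1. In hybrids AGO1 led with 37.1 ± 2.54, followed by AGO2 (33.0 ± 1.66), r2d2 (30.8 ± 1.26), pasha (24.3 ± 0.648), drosha (22.5 ± 1.70), Dcr-1 (17.0 ± 2.30), Dcr-2 (15.1 ± 2.55) and loqs (14.4 ± 0.911). Here only Dcr-1, Dcr-2 and loqs overlapped with a neighbour. The hybrid values contain reads placed in the wrong species, expected at 12.5% and 11.0% of the AGO1 counts and 11.0% and 9.74% of the pasha counts. With these subtracted, the TPM of AGO1 was 0.973 and 1.02 times that of AGO2, and that of pasha 0.998 and 0.945 times that of drosha. The hybrid places and percentiles of AGO1 and pasha given here are without this subtraction. AGO1, pasha and Dcr-1 each stood 2 places higher in hybrids than in D. melanogaster, drosha, loqs, AGO2 and r2d2 each 1 place lower, and Dcr-2 2 places lower. Among all tested genes, Dcr-1 went from the 31.4 to the 49.7 percentile of TPM, pasha from 44.3 to 62.3 and AGO1 from 64.2 to 77.2, whereas r2d2 stood at 71.0 in both groups and Dcr-2 at 45.1 and 45.9.

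**Figure D1:**
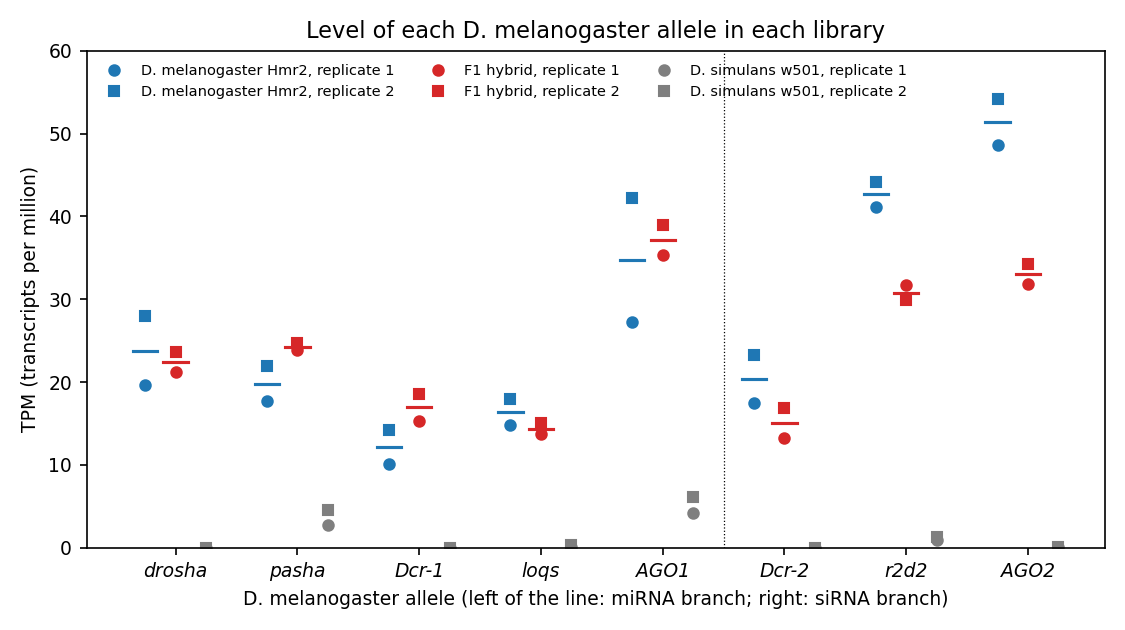
TPM of the D. melanogaster allele of each of the 8 genes (y axis) in the single libraries of D. melanogaster Hmr2, F1 hybrids and D. simulans w501, with lines at the group means. The D. simulans points lie near 0 except those of AGO1 (4.19 and 6.12) and pasha (2.80 and 4.55), which are reads placed in the wrong species.

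For the comparison, counts were expressed as CPM of the D. melanogaster-gene counts of the library after TMM scaling, called normalised read counts here. A fold change is therefore relative to the other D. melanogaster genes, and the lower overall share of that genome in a hybrid does not appear in it. When the counts were scaled to the whole library instead, the median of all tested genes was -0.93 on the log2 scale, and every gene moved by about that amount.

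The clearest shift was in the Dicers. Dcr-1, which cuts miRNA hairpins, had normalised read counts of 83.5 and 121.1 in D. melanogaster and 178.3 and 217.2 in hybrids, and lies at chromosome 3R, 22734007 to 22741091, on the minus strand. Both hybrid libraries were above both D. melanogaster libraries, and the level rose 1.93-fold relative to the other D. melanogaster genes (log2 0.95, SE 0.22, adjusted p = 0.0234 in edgeR's quasi-likelihood test), while on the whole-library scale its log2 fold change was 0.03. This was the largest change among the 8 genes and exceeded the log2 fold change of 94.7% of the tested genes, but it missed the 2-fold limit used for a call. Dcr-2, the siRNA Dicer (2R, 17574979 to 17581525, minus strand), had 117.2 and 162.6 in D. melanogaster and 126.7 and 161.8 in hybrids. The groups overlapped, and its log2 fold change was 0.05 (SE 0.21, adjusted p = 0.885 in edgeR). Without hybrid replicate 2 the adjusted p of Dcr-1 was 0.169 in edgeR, with a log2 fold change of 0.80 and a single hybrid library that is assumed to vary like the others. The log2 fold change of Dcr-1 was 1.09 without hybrid replicate 1, and 0.70 and 1.21 without D. melanogaster replicates 1 and 2. Each of these fits also left a single library in a group. Dcr-1 was called with total scaling in place of TMM (log2 1.09, adjusted p = 0.0282 in edgeR). On log2(TPM + 1), which is not centred on the D. melanogaster genes, limma gave it 0.46 (adjusted p = 0.134).

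In the nuclear step, pasha (3R, 31617977 to 31622217, plus strand) had normalised read counts of 58.5 and 75.3 in D. melanogaster and 111.9 and 116.5 in hybrids. The groups did not overlap, and pasha rose 1.71-fold relative to the other D. melanogaster genes (log2 0.77, SE 0.18, adjusted p = 0.0234 in edgeR), though on the whole-library scale its log2 fold change was -0.15. A share of the pasha reads in hybrids was D. simulans sequence placed on the D. melanogaster allele: this allele was at 16.5% of its D. melanogaster level in the D. simulans libraries, and 11.0% and 9.74% of its counts in the hybrid libraries were expected from that source. With these counts subtracted the log2 fold change was 0.65 (SE 0.18, adjusted p = 0.0384 in edgeR). The log2 fold change of pasha was 0.80 without hybrid replicate 1 and 0.74 without hybrid replicate 2. Each of these fits left a single hybrid library and took its spread from the D. melanogaster pair alone, so no p-value is given. The rise of pasha did not pass the test in a fit with all 6 libraries (0.72, adjusted p = 0.111 in edgeR). Nor did it on log2(TPM + 1), which is not centred on the D. melanogaster genes (0.29, adjusted p = 0.211 in limma). With each library centred on its median on that scale, pasha was at 0.71 (adjusted p = 0.0282 in limma). Its enzyme partner drosha (2R, 7932429 to 7936840, plus strand) had 99.3 and 146.7 in D. melanogaster and 152.2 and 170.2 in hybrids. Both hybrid values were higher, the nearer of them by less than the gap between the D. melanogaster replicates, and the log2 fold change of 0.39 (SE 0.21, adjusted p = 0.204 in edgeR, -0.54 on the whole-library scale) did not pass the test.

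Of the double-stranded RNA binding partners of the Dicers, loqs (2L, 13382652 to 13385671, plus strand) had normalised read counts of 33.3 and 41.3 in D. melanogaster and 44.2 and 47.8 in hybrids. The groups did not overlap but lay close together, at a log2 fold change of 0.30 (SE 0.18, adjusted p = 0.231 in edgeR, -0.62 on the whole-library scale). The counts are of whole genes, so the isoform that works with Dicer-2 was not separated from the others. For r2d2 (2L, 7800147 to 7802098, plus strand) the values were 66.0 and 73.3 in D. melanogaster and 72.2 and 67.9 in hybrids, with overlapping groups and a log2 fold change of 0.01 (SE 0.16, adjusted p = 0.975 in edgeR).

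Among the Argonautes, AGO1 (2R, 13943387 to 13958089, minus strand) had normalised read counts of 211.0 and 326.9 in D. melanogaster and 372.9 and 389.9 in hybrids. Both hybrid libraries were higher, and the 2 D. melanogaster libraries differed from each other by more than the higher of them differed from either hybrid. The log2 fold change was 0.50 (SE 0.23, adjusted p = 0.137 in edgeR), -0.43 on the whole-library scale and 0.36 with the expected wrong-species counts subtracted, which made up 12.5% and 11.0% of its hybrid counts. AGO2 (3L, 15554113 to 15561042, plus strand) was the only member with a value below that of the other D. melanogaster genes, at 228.4 and 264.1 in D. melanogaster and 212.3 and 227.4 in hybrids. Its hybrid values were both lower, the higher of them only just, and the log2 fold change of -0.16 (SE 0.16, adjusted p = 0.475 in edgeR) did not pass the test.

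**Figure D2:**
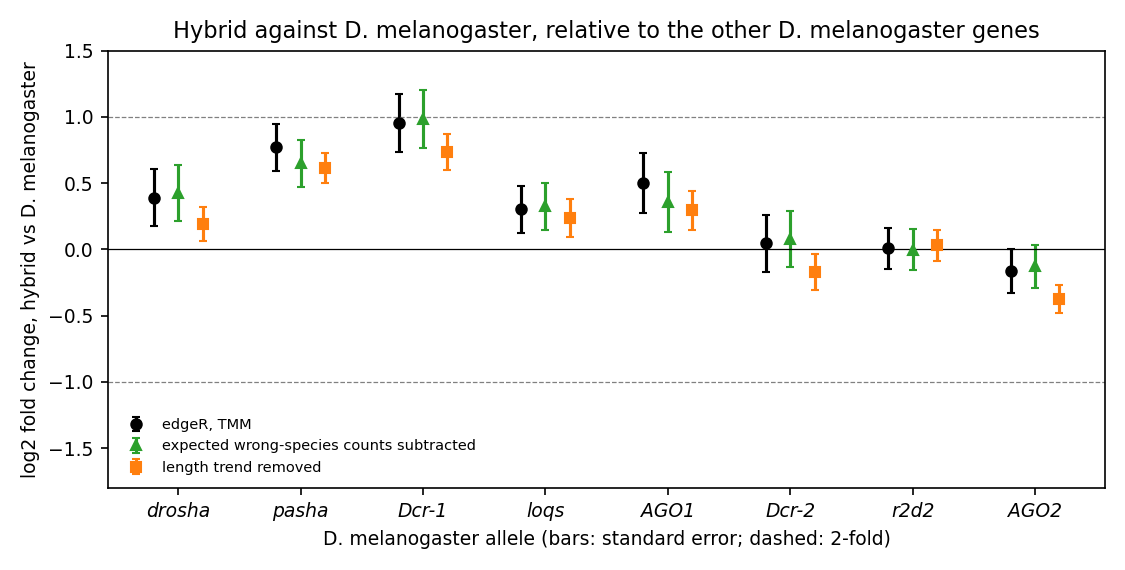
Log2 fold change of each D. melanogaster allele in hybrids against D. melanogaster (y axis), relative to the other D. melanogaster genes, with standard errors as bars and 2-fold limits as dashed lines. Black points are the edgeR values reported here, green ones follow subtraction of expected wrong-species counts and orange ones removal of a trend with gene length; Dcr-1 is the highest under each, from 0.74 to 0.99.

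Counted together, none of the 8 members was called at an adjusted p below 0.05 and at least 2-fold in edgeR, where 13.2% of the tested genes were called in either direction. DESeq2 also called 0 at 2-fold. At an unadjusted p below 0.05, 2 members were higher (background 17.1%) and 0 lower (background 23.6%). By adjusted p alone, 2 members rose (Dcr-1 and pasha, background 6.80%) and 0 fell (background 15.0%), relative to the other D. melanogaster genes, with the same counts in DESeq2. In 5 members both hybrid libraries exceeded both D. melanogaster libraries (background 36.6%), in 1 (AGO2) both were lower (background 37.2%), and in Dcr-2 and r2d2 the groups overlapped. These 5 were the members with a role in the miRNA branch, drosha, pasha, Dcr-1, loqs and AGO1, whose log2 fold changes ran from 0.30 to 0.95 with a median of 0.50. The median of the 3 siRNA members, Dcr-2, r2d2 and AGO2, was 0.01, that of all 8 was 0.35 and that of all tested genes 0.00. The difference between the branches was not tested, since their members are few and were named with these values known.

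The D. melanogaster libraries themselves differed at these genes. Replicate 2 was above replicate 1 in all 8 members, by 0.15 (r2d2) to 0.63 (AGO1) on the log2 scale, with a median of 0.42, while over all tested genes the median was -0.02 and replicate 2 was above in 48.1%. The hybrid replicates lay closer, with a median absolute difference of 0.107 over the members. Without D. melanogaster replicate 2 the log2 fold changes were 0.82 for AGO1, 0.67 for drosha and 0.43 for loqs. Without replicate 1 they were 0.22, 0.13 and 0.15. For Dcr-1 and pasha they were 1.21 and 0.93 without replicate 2, and 0.70 and 0.59 without replicate 1. With a single D. melanogaster library the fit takes its spread from the hybrid pair alone, so no p-value is given. The difference between the D. melanogaster replicates rose with exonic length (Spearman's rho 0.412 across 8200 genes, which are not independent replicates), and so did the log2 fold change in hybrids (rho 0.313). The median log2 fold change ran from -0.45 in the shortest eighth of genes to 0.26 in the longest. The members have from 1879 (r2d2) to 8278 (AGO1) exonic bases, and Dcr-1, with 6913, is in the longest eighth.

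With the length trend removed within each library, every member but r2d2 moved down, and Dcr-1 and pasha still passed the test. Dcr-1 was then at 0.74 (SE 0.13, adjusted p = 0.0110) and pasha at 0.61 (SE 0.11, adjusted p = 0.0110) on the log2 scale in edgeR. AGO2 passed the test at a log2 fold change of -0.38 (SE 0.11, adjusted p = 0.0401), and with the wrong-species counts subtracted as well it had -0.34 and an adjusted p of 0.0531 in edgeR. Dcr-2 was at -0.17, AGO1 at 0.29, loqs at 0.24 and drosha at 0.19, none of them past the test. What causes the trend was not tested.

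The ratio of 2 genes within a library does not depend on any scaling between libraries, so the members with matching roles were also compared in that way. The TPM of Dcr-1 was 0.583 and 0.611 times that of Dcr-2 in D. melanogaster, and 1.15 and 1.10 times that of Dcr-2 in hybrids. Between the D. melanogaster alleles of the Dicers, that of Dcr-1 was thus the less abundant in the mothers' line and the more abundant in hybrids. The difference was 0.92 on the log2 scale, with little spread in either group. The D. simulans alleles are not in these ratios, so they do not show which Dicer transcript was the more abundant in hybrids in total. The TPM of AGO1 was 0.561 and 0.779 times that of AGO2 in D. melanogaster and 1.11 and 1.14 times in hybrids, a log2 difference of 0.77. With the expected wrong-species counts subtracted, the hybrid ratios of AGO1 to AGO2 were 0.973 and 1.02, still above those of D. melanogaster but no longer both above equality.

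For pasha to drosha the ratios were 0.899 and 0.785 in D. melanogaster and 1.12 and 1.05 in hybrids, or 0.998 and 0.945 after the same subtraction. For loqs to r2d2 they were 0.362 and 0.406 against 0.434 and 0.503. In each of the 4 pairs, in the order given, both hybrid ratios exceeded both D. melanogaster ratios, by log2 differences from 0.29 (loqs to r2d2) to 0.92. This was also so with the subtraction, at differences from 0.21 (pasha to drosha) to 0.92. Drosha and pasha act together in the miRNA branch, so the direction of their ratio depends only on which gene is put first. The ratios restate the fold changes of the single genes and are not separate support for them. With 2 libraries against 2, an exact two-sided permutation test cannot give a p below 0.333, and no other test was run on the ratios.

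**Figure D3:**
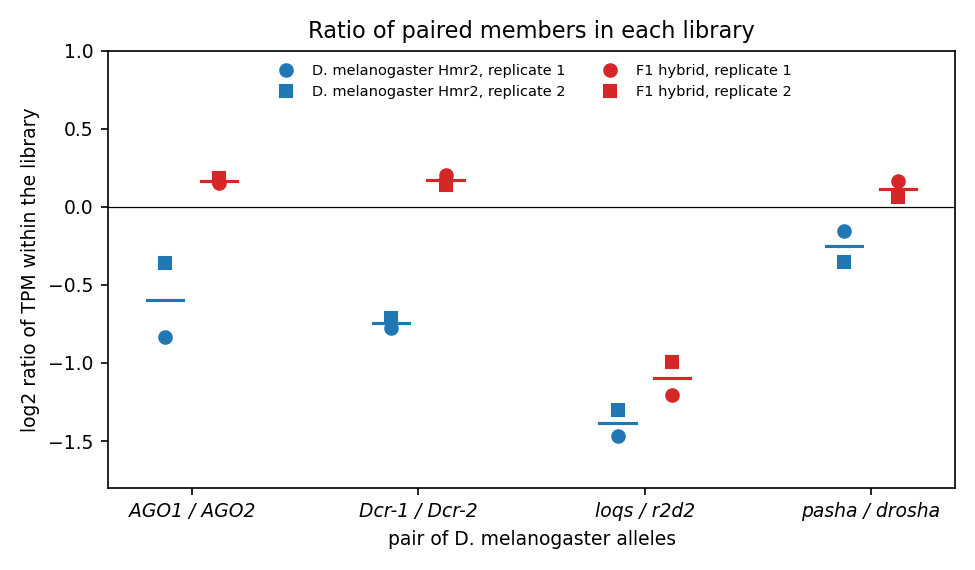
Log2 ratio of the TPM of paired D. melanogaster alleles within each library (y axis) for D. melanogaster Hmr2 (blue) and F1 hybrids (red), with lines at the group means. Dcr-1 to Dcr-2 goes from -0.78 and -0.71 to 0.21 and 0.14, and AGO1 to AGO2 from -0.84 and -0.36 to 0.15 and 0.19.

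On the CPM scale of the whole library, a hybrid allele can be set against the level in D. melanogaster, which has 2 such alleles. The median tested gene was at 52.9% of its D. melanogaster mean. The siRNA members were near it, AGO2 at 44.6% and 49.5% in the hybrid libraries, r2d2 at 53.7% and 52.3% and Dcr-2 at 46.8% and 61.9%. The miRNA members stood above it, with loqs at 61.2% and 68.7%, drosha at 63.8% and 73.9% and AGO1 at 71.5% and 77.4%. The 2 that passed the test came nearest to the full D. melanogaster level, pasha at 86.5% and 93.3% and Dcr-1 at 89.9% and 113.4%. This is the contrast already given, on another scale, so the members keep the order of their fold changes. These percentages contain the wrong-species counts, which matter for pasha and AGO1.

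**Figure D4:**
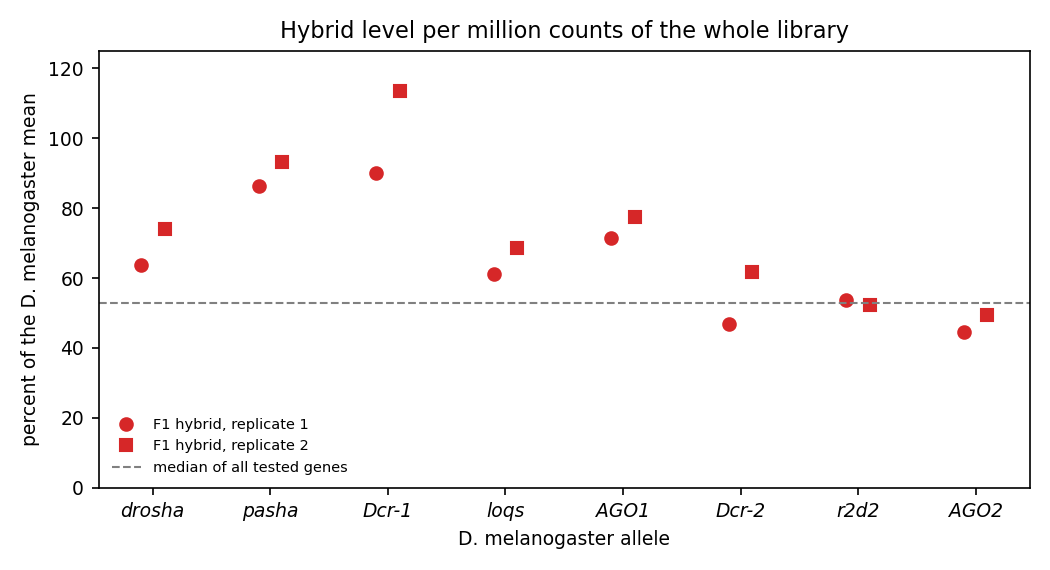
Level of each D. melanogaster allele in the hybrid libraries as a percentage of its D. melanogaster mean (y axis), both in CPM of the whole library, with the median of all tested genes (52.9%) marked. The siRNA members lie near that median, and pasha and Dcr-1 lie highest, with means of 89.9% and 101.7%. The order is that of the fold changes, as the contrast is the same on another scale.

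In the D. simulans libraries the alleles of the other 6 members were at no more than 2.97% of their D. melanogaster level, from 0.0748% for Dcr-1 to 2.97% for r2d2, so wrongly placed reads were a small part of their hybrid values. Exons of other genes on the opposite strand cover 22.9% of the exonic bases of r2d2 (Cdc14), 18.3% of those of loqs (asRNA:CR44599) and 7.65% of those of AGO2 (CG7739). No strand setting is stated for the counting, so reads from these stretches may belong to either gene. Exons of kek6, on the same strand, cover 2.55% of the exonic bases of pasha, and a strand setting would not separate them. The opposite-strand overlaps of AGO1 (CG33155, 2.37%, and mRpL53, 0.399%) and Dcr-2 (Rab4, 0.0176%) were smaller. The exons of Dcr-1 and drosha overlap no other gene.

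For the member with the largest change, Dcr-1, the genes with the most similar profile were sought among the tested genes of at least median expression. By Euclidean distance of centred log2 normalised read counts over the 4 libraries, they were asp, which encodes a spindle pole protein (distance 0.03, log2 fold change 0.99), brm, the ATPase of a chromatin remodelling complex (0.05, log2 fold change 0.94), and CG31224 (0.06, log2 fold change 0.90). With 4 libraries many genes lie close, and the likeness is a description only.

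Beyond the core, 38 other genes of the pathways were followed, and all 38 were tested. By adjusted p in edgeR, 5 rose (13.2% of the list, background 6.80%) and 3 fell (7.89%, background 15.0%) relative to the other D. melanogaster genes, with a median log2 fold change of 0.16 and positive values in 26 (68.4%, against 50.2% of all tested genes). At least 2-fold changes were called in 3, all of them lower (10.3% of the tested genes were called lower at 2-fold). At an unadjusted p below 0.05 the counts were 10 higher (26.3%, background 17.1%) and 7 lower (18.4%, background 23.6%). The counts by adjusted p depended on single libraries. A fit with a single library left in a group takes its spread from the other group alone. Without either hybrid library 0 rose and 1 fell, without D. melanogaster replicate 1 the counts were 11 and 6, without replicate 2 they were 17 and 10, in the fit with all 6 libraries 0 and 2, and in DESeq2 8 and 7.

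The genes that fell encode 2 proteins of the RNA-induced silencing complex (RISC) or its loading and 1 of the effectors. For vig, which encodes a protein found with RISC, the normalised read counts were 132.1 and 107.4 in D. melanogaster and 44.9 and 39.9 in hybrids. That is a log2 fold change of -1.50 (SE 0.18, adjusted p = 0.0024 in edgeR). The chaperone Hsc70-4, which helps to load RISC, had 9123 and 7079 in D. melanogaster and 3764 and 3777 in hybrids (log2 -1.10, SE 0.28, adjusted p = 0.0330 in edgeR). The poly(A)-binding protein gene pAbp, whose product binds the effector protein of AGO1, had 4212 and 3542 against 1951 and 1897 (log2 -1.01, SE 0.24, adjusted p = 0.0262 in edgeR), at the edge of the 2-fold limit. The hybrid values of these 3 genes were all below those of D. melanogaster. With either hybrid library left out, vig still passed the test (adjusted p = 0.0013 and 0.0056 in edgeR), and Hsc70-4 and pAbp did not (adjusted p from 0.329 to 0.403). Each also has other roles in the cell, in protein folding, translation or chromatin.

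Of the 5 genes that rose, 2 act at the nuclear cap, 2 are miRNA effectors and 1 modifies the ends of small RNAs. Each was below its D. melanogaster level on the whole-library scale, and none passed the test with either hybrid library left out (adjusted p from 0.209 to 0.419 in edgeR). Ars2, which links cap binding to primary miRNA processing, had 228.4 and 270.8 in D. melanogaster and 373.4 and 427.9 in hybrids (log2 0.68, SE 0.18, adjusted p = 0.0338 in edgeR, -0.24 on the whole-library scale). Ge-1, a decapping factor, had 137.5 and 180.3 against 257.5 and 255.8 (log2 0.69, SE 0.18, adjusted p = 0.0361 in edgeR, -0.23 on the whole-library scale). The cap-binding gene Cbp80 had 125.3 and 154.3 against 211.7 and 214.9 (log2 0.61, SE 0.17, adjusted p = 0.0412 in edgeR, -0.31 on the whole-library scale). The remaining 2 were named after their values were seen, Rcd-1, a subunit of the CCR4-NOT deadenylase (log2 0.56, adjusted p = 0.0421 in edgeR, -0.35 on the whole-library scale), and Hen1, the methyltransferase that protects the ends of siRNAs in AGO2 (log2 0.63, adjusted p = 0.0472 in edgeR, -0.28 on the whole-library scale). By subgroup, the medians were 0.39 for 4 genes of cap binding and export, 0.36 for 15 miRNA effectors, 0.32 for 7 genes of end modification and turnover, -0.23 for 6 proteins found with RISC and -0.55 for 6 chaperones, against 0.00 for all tested genes.

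**Figure D5:**
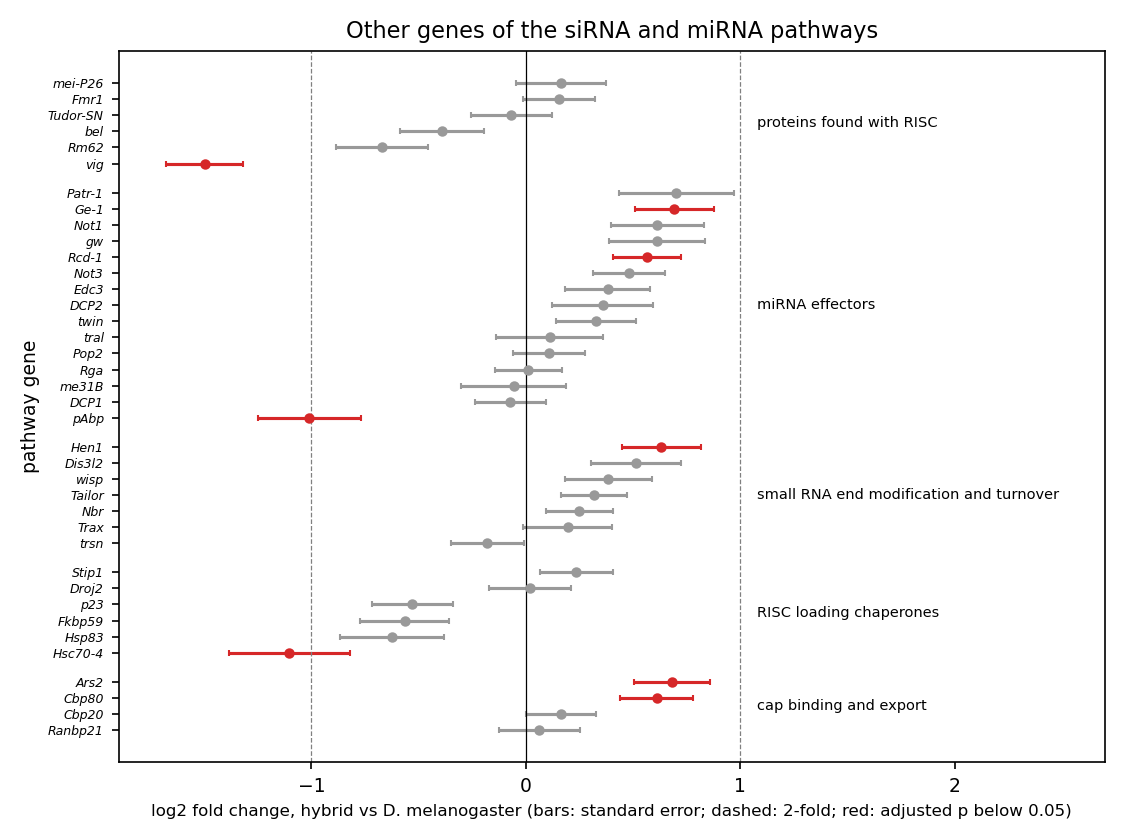
Log2 fold change of 38 other siRNA and miRNA pathway genes in hybrids against D. melanogaster (x axis), relative to the other D. melanogaster genes, with standard errors as bars, 2-fold limits as dashed lines and genes with an adjusted p below 0.05 in red. The 3 red points to the left (vig, Hsc70-4 and pAbp) lie beyond 2-fold, and the 5 to the right lie between 0.56 and 0.69.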

How the data were processed

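Reads of high base quality were assigned by the authors with kallisto 0.50.0 to a joint set of RefSeq transcripts of D. melanogaster and D. simulans and summed to genes. The deposited estimated counts can be fractional, as reads shared by transcripts are divided, and the deposited TPM values were scaled by the authors over the joint set. The header of 1 count column repeats a TPM name, and the column was identified by its values. The 6 length columns, whose headers name no sample, were left out.

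Estimated counts were rounded and hybrids compared with D. melanogaster over 8202 genes in R 4.3.3 with edgeR 4.0.16 (quasi-likelihood test, two-sided, TMM factors within D. melanogaster genes, filterByExpr with a minimum of 10 counts). P-values were adjusted by Benjamini-Hochberg over all tested genes, and genes were called at adjusted p below 0.05 and at least 2-fold. The standard error is the log2 fold change over the square root of the quasi-F. Named are the members, the pathway genes called or with the 3 smallest p in each direction, and the 3 genes most like the member with the largest change. Positions are of the Release 6 assembly, with Ensembl exons.

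Expected wrong-species counts are the counts of a gene per D. simulans-gene count in the D. simulans libraries, times the D. simulans-gene count of the hybrid library. The alternatives included DESeq2 1.42.0, limma 3.58.1 on log2(TPM + 1), other scalings and filters, a replicate block, and each library left out. The members and lists were chosen with earlier results of these data known. The length trend, the centred TPM and the subtraction in ratios were added after the data were seen. The edgeR step was tested on simulated data. Replicates differed by more than sampling noise (chi-square per degree of freedom 78.3, 5.93 and 17.1 for D. melanogaster, hybrids and D. simulans), and each library was kept. In the 4 libraries compared, 3 counts were 0.159 to 0.396 CPM of the D. melanogaster-gene counts.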

Additional observations from a re-analysis of the deposited data

Results flagged for a closer look

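Counts on the D. melanogaster alleles were above the limit of 3 counts in both libraries of D. simulans, which carry no such allele and were not part of the comparison, for 5 of the 8 genes, and in 1 of the libraries for 2 more (drosha and Dcr-1). For AGO1 there were 488 and 910 estimated counts, 15.6% of the D. melanogaster level. For pasha there were 121 and 250 counts, or 16.5%. For r2d2 the counts were 24.8 and 43.0, or 2.97%, for loqs 3.06 and 11.5, or 1.09%, and for AGO2 3.003 and 4.004, or 0.0900%. Groups of 2 libraries are too small for a check of single outlying samples.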

How the results depend on the processing

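With counts scaled to the whole library, which keeps the lower dose of the D. melanogaster genome, the log2 fold changes were 0.025 for Dcr-1, -0.15 for pasha, -0.43 for AGO1, -0.54 for drosha, -0.62 for loqs, -0.88 for Dcr-2, -0.92 for r2d2, -1.09 for AGO2, -0.31 for Cbp80, -0.24 for Ars2, -0.28 for Hen1, -0.35 for Rcd-1, -0.23 for Ge-1 and -0.027 for CG31224. This scaling called 1 member, 3784 of all genes and 9 of the pathway list. With it neither Dcr-1 nor pasha passed the test (adjusted p = 0.932 and 0.512 in edgeR). These shifts follow from the construction, as the median gene moved by -0.93. Scaling to the D. melanogaster total without TMM called 1 member and 1 pathway gene, and calling by adjusted p alone gave 2 members, 1791 of all genes and 8 pathway genes.

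On log2(TPM + 1), where the median gene was at -0.41, the values were 0.46 for Dcr-1, 0.29 for pasha, -0.062 for drosha, -0.17 for loqs, -0.40 for Dcr-2, -0.46 for r2d2 and -0.62 for AGO2, and on log2(TPM + 0.1) they were 0.49, 0.30, -0.063, -0.18, -0.42, -0.47 and -0.64. Centred on the median gene, TPM gave 0.88 for Dcr-1 (adjusted p = 0.0300 in limma), 0.71 for pasha (adjusted p = 0.0282 in limma) and -0.038 for r2d2. A fit with all 6 libraries left 1 member higher, with pasha at 0.72, Dcr-2 at -0.0043 and r2d2 at -0.042. The value of r2d2, near 0, was -0.024 without a filter, -0.0064 with 10 counts in every library and -0.0014 after subtraction of wrong-species counts. With the length trend removed 1 member fell, AGO2 at -0.38, and Dcr-2 was at -0.17, or -0.13 with subtraction as well. The Dcr-1 to Dcr-2 difference was 0.86 with TPM + 1, and that of pasha to drosha 0.21 after subtraction. The cause of these differences was not tested.

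Leaving out single libraries gave 0 to 1 members called, 0 to 5 higher, 742 to 1637 of all genes called and 1 to 4 pathway genes. Log2 fold changes ranged from 0.70 to 1.21 for Dcr-1, 0.59 to 0.93 for pasha, 0.22 to 0.82 for AGO1, 0.13 to 0.67 for drosha, 0.15 to 0.43 for loqs, -0.18 to 0.27 for Dcr-2, -0.074 to 0.053 for r2d2 and -0.27 to -0.09 for AGO2. The replicate numbers are shared between groups, but deviations of same-numbered libraries were uncorrelated (-0.000165), so the block is given here only. With the replicate block Dcr-1 was at 0.97 (adjusted p = 0.0012) and pasha at 0.78 (adjusted p = 0.0053) in edgeR, and no member gained or lost a call. With 2 libraries a group, standard errors of 0.156 to 0.227 limit what could be detected.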
